A study of Mus musculus with 11 samples.

Results

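Transcripts of the urea cycle and of periportal amino acid breakdown were followed in mouse liver that lacks glutathione reductase. The genes were chosen by name: all probe sets that the platform annotation gives to exactly 1 of the symbols Nags, Cps1, Otc, Ass1, Asl, Arg1, Gls2, Hal, Sds and Sfxn1. Of these 10 symbols 7 had such a probe set, out of 12393 genes named that way on the array, and they held 10 of the 22626 probe sets of the array that are not controls. Ass1 shared its 1 probe set with Gm5424 in the annotation, so no value is given for it, and no probe set was named for Gls2 or Sds. Values came from 11 male C57BL/6J mice aged 15 to 20 weeks, 5 wild type (WT) and 6 Gsr-null, whose livers were taken between 2 and 4 in the afternoon. The labels call the samples of each genotype biological replicates; the labels used here do not give the Gsr allele. Livers are numbered by the biological replicate number of their titles, not by the other number that the Gsr-null titles carry in brackets. Each sample is 1 array and each value a log2 signal of 1 probe set, so a difference of 1 is a doubling.

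The urea cycle turns ammonia into urea and runs in full in hepatocytes, most strongly in those around the portal vein. N-acetylglutamate, made by Nags, activates Cps1, which makes carbamoyl phosphate in mitochondria; Otc joins it to ornithine to give citrulline. In the cytosol Ass1 and Asl convert citrulline to arginine, and Arg1 splits arginine into urea and ornithine. Hal, which starts histidine breakdown, and Sds, which deaminates serine, are other periportal enzymes. Gls2 frees ammonia from glutamine, and Sfxn1 carries serine into mitochondria.

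The data show no genotype difference in any of these transcripts that passed the test. Limma called 0 of the 7 genes at an adjusted p under 0.05, against 0.432% of the 6022 genes tested, and 0 of their 10 probe sets, against 0.387% of 9560. It found 0 of the 7 genes at an unadjusted p under 0.05, against 8.78% of genes. A plain two-sample test without moderation likewise called 0, with 0 at an unadjusted p under 0.05. WT and Gsr-null values overlapped for all 7 genes, whereas 1.51% of genes had groups that did not overlap. The difference was positive for 3 of the 7 genes, against 42.7% of all genes, and negative for 4, with a median of -0.017, beside -0.032 over all genes tested. The 95% intervals of these 7 differences ran from -0.40 at the lowest bound to 0.56 at the highest, or 0.759-fold to 1.47-fold. Gsr itself, the gene that defines the groups, was 6.62 to 6.93 in WT and 4.71 to 5.29 in Gsr-null livers. Bulk tissue cannot tell fewer cells of a type from less RNA per cell.

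Promoter sequence of 4 of the 7 genes was at hand from RefSeq (build GRCm38.p6): Hal, Nags, Otc and Sfxn1. Shown here are the 250 bases before the gene start of Nags, and of Otc and Hal for comparison. Nags was picked for its correlations with Cps1 and Arg1 between animals, given below, which lost their call in some alternatives. Nags is at chr11:102145263-102145512, Otc at chrX:10252055-10252304 and Hal at chr10:93488518-93488767, all on the plus strand. Capitals mark matches to 5 motifs, searched on both strands. The TATA box was searched as TATAAA. The CCAAT box was searched under the letters of its name. The GC box was searched as GGGCGG. Part of the cAMP response element was searched as TGACG. The C/EBP motif was searched as TTGCNNAA. No matches overlap in the windows shown.
Nags: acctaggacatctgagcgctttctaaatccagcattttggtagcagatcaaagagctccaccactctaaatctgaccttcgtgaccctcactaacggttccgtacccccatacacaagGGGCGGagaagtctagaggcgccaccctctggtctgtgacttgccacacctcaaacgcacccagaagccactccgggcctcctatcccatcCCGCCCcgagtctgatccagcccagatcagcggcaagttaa
Otc: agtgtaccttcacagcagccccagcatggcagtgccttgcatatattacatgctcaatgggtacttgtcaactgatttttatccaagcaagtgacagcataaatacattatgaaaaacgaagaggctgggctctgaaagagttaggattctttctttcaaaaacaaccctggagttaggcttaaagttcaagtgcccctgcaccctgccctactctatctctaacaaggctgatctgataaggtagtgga
Hal: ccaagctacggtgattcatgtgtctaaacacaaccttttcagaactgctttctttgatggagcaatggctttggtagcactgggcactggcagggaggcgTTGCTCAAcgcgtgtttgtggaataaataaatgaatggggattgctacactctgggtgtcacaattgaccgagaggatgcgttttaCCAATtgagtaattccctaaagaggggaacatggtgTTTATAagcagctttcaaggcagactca
The Nags window held 2 GC boxes and had 55.6% G or C. At least 1 GC box is held by 32.7% of 32851 windows of this length. Hal held a TATA box match on the strand opposite to the gene, with its left end 28 bases before the gene start. It also held a CCAAT box and a C/EBP match. On either strand, 12.4%, 33.8% and 9.56% of windows hold a TATA box, a CCAAT box and a C/EBP match. The Otc window matched none of these motifs, and a GC box was the 1 motif in the Sfxn1 window. Part of a cAMP response element was in 17.8% of windows and in 0 of these 4. These are matches of letters and were not tested as binding sites.

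Sample checks covered the arrays as a whole. Averaged over the Actb and Gapdh controls, signal at the 3' end exceeded that at the 5' end by 0.544 to 0.703 in 2 WT and 3 Gsr-null livers, the lower set, and 1.199 to 1.746 in 3 WT and 3 Gsr-null livers, the higher set. The genotype differences of the 7 genes within the lower and the higher set were 0.31 and -0.13 for Nags, 0.054 and -0.24 for Cps1, -0.072 and -0.077 for Otc, and 0.091 and -0.091 for Asl. They were -0.016 and -0.17 for Arg1, -0.23 and 0.23 for Hal, and 0.18 and 0.29 for Sfxn1, so that 4 of the 7 changed sign between sets, which was not tested. Within the lower set the groups of 1 gene, Nags, did not overlap, as was so for 30.3% of all genes. Of 8 hepatocyte markers the 6 with a probe set were bright and 0 were called, 1 at an unadjusted p under 0.05, with a summed log2 level of 16.08 to 16.37 in WT and 16.14 to 16.38 in Gsr-null livers, while all 5 kidney tubule markers were below 4 in all samples. Limma called 0 of 5 Kupffer cell, 0 of 4 endothelial and 0 of 3 stellate cell markers, with 0, 1 and 1 at an unadjusted p under 0.05. Summed neutrophil markers, of which Csf3r, Elane and Mpo were below 4 throughout, were 4.89 to 5.14 in WT and 4.92 to 7.69 in Gsr-null livers. Acute phase genes had 8 of 8 differences above 0, 5 at an unadjusted p under 0.05 and 0 called by limma. Over all genes tested 42.7% had a difference above 0 and 8.78% an unadjusted p under 0.05. The summed log2 level of the acute phase genes was 15.12 to 15.60 in WT and 15.22 to 16.71 in Gsr-null livers. Their part in the values of the 7 genes was not tested.

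Nags, on chromosome 11, was 6.61, 6.97, 6.72, 6.83 and 7.12 in WT livers 1 to 5. In Gsr-null livers the lowest value was 6.52, the median 6.94 and the highest 7.48. The groups overlapped, with Gsr-null liver 3 above every WT liver and liver 5 below every one. The means were 6.85 ± 0.202 (SD, n = 5) and 6.95 ± 0.335 (SD, n = 6), and the difference was 0.095 (SE 0.169, limma adjusted p = 0.979).

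Cps1, on chromosome 1, was 12.57, 13.03, 12.92, 12.80 and 13.01 in WT livers 1 to 5, and 12.50, 12.71 and 13.11 at the lowest, median and highest of the Gsr-null livers. WT liver 1 and Gsr-null livers 4, 5 and 6 formed its low end, so each genotype had low and high animals and the groups overlapped. The difference of -0.087 (SE 0.143, limma adjusted p = 0.977) had a 95% interval from 0.759-fold to 1.17-fold.

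Otc, on chromosome X, was represented by the probe set 1420525_a_at, at 11.93, 12.34, 12.06, 12.09 and 12.02 in WT livers 1 to 5. Its lowest, median and highest Gsr-null values were 11.85, 12.04 and 12.25, and the groups overlapped. This was among the tightest of the genes, with all 11 livers within 0.489, and the difference was -0.054 (SE 0.112, limma adjusted p = 0.983).

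The other probe sets of Otc gave no correlation with that one that passed the test. Probe set 1436615_a_at, also bright, ranged over 1.17, from 11.44 to 12.44 in WT and from 11.39 to 12.57 in Gsr-null livers. Its correlation with 1420525_a_at over the 11 livers was near 0 (Pearson's r = 0.0147, permutation p = 0.964; Spearman's rho = -0.0909, permutation p = 0.795; adjusted p = 0.964 over the 4 within-gene pairs of probe sets compared). Without the 2 livers farthest from the median r was 0.183, and within the 6 livers of higher 3' to 5' difference, described with the sample checks, it was -0.00452. Probe set 1425540_at was dim, at 4.40 to 4.55 in WT and 4.36 to 5.21 in Gsr-null livers. Its high value was Gsr-null liver 1 alone, the next highest being 4.62. Its correlation with 1420525_a_at was r = 0.389 (permutation p = 0.249, adjusted p = 0.498) and rho = 0.2 (permutation p = 0.552), and r was 0.764 without the 2 livers farthest from the median and -0.565 within the 6 livers of the higher set, so its direction depended on which livers entered. Genotype differences of 0.014 and 0.16 on these probe sets did not pass either (limma adjusted p = 0.999 and 0.918), so none of the 3 probe sets of Otc separated the genotypes.

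Asl, on chromosome 5, was 10.93, 10.92, 11.16, 10.89 and 11.13 in WT livers 1 to 5, and 10.55, 11.06 and 11.35 at the lowest, median and highest of the Gsr-null livers. Gsr-null livers held both the highest and the lowest value, the lowest being liver 1, so the groups overlapped. The SD was 0.127 (n = 5) in WT and 0.272 (n = 6) in Gsr-null livers, while the means differed by -0.017 (SE 0.141, limma adjusted p = 0.999). Whether the spreads differ was not tested.

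Arg1, on chromosome 10, was 12.42, 12.82, 12.79, 12.69 and 12.79 in WT livers 1 to 5. Gsr-null livers ran from 12.44 through a median of 12.61 to 12.85, so the groups overlapped. WT liver 1 was the lowest of all 11, as Gsr-null liver 3 was the highest. Of the 6 Gsr-null livers 1 lay above the WT mean, yet the difference was -0.082 (SE 0.117, limma adjusted p = 0.967) and its 95% interval ran from 0.793-fold to 1.13-fold.

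**Figure D1:**
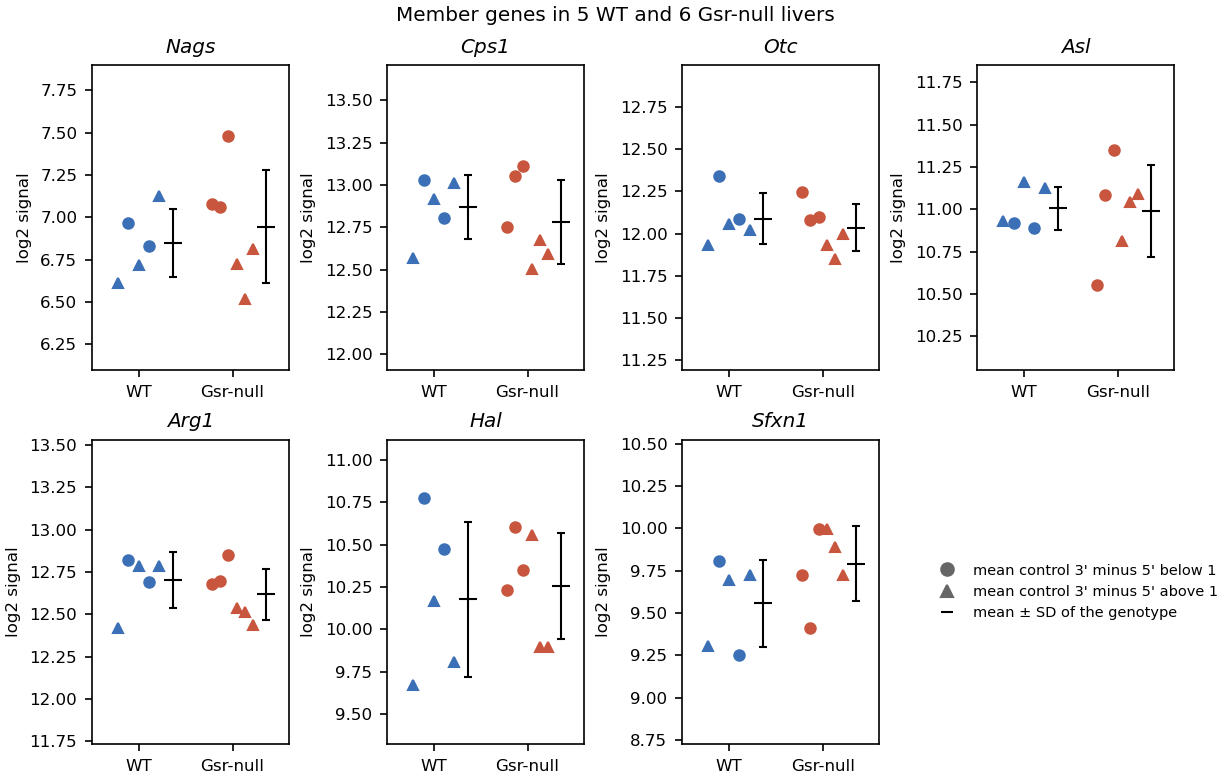
Log2 signal of the representative probe set of 7 genes (vertical axes, each spanning the same width) in WT (blue) and Gsr-null (red) livers. Each point is 1 liver, its shape gives the set by mean control 3' minus 5' difference, and black marks give the mean ± SD; the genotypes overlap in every panel.

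Hal, on chromosome 10, varied most of the representative probe sets. It was 9.67, 10.77, 10.17, 10.48 and 9.81 in WT livers 1 to 5, and 9.89, 10.29 and 10.61 at the lowest, median and highest of the Gsr-null livers. All Gsr-null values fell within the WT range. The difference was 0.078 (SE 0.216, limma adjusted p = 0.992). Its 95% interval, from 0.762-fold to 1.46-fold, was the widest among the 7 genes.

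Sfxn1, on chromosome 13, had the largest difference of the 7. Its representative probe set 1417559_at was 9.30, 9.81, 9.69, 9.25 and 9.73 in WT livers 1 to 5, and 9.41, 9.81 and 9.999 at the lowest, median and highest of the Gsr-null livers. Of the 6 Gsr-null livers 5 lay above the WT mean and 3 above every WT liver, whereas livers 1, 2 and 6 lay within the WT range. The difference was 0.23 (SE 0.15, limma adjusted p = 0.797; exact two-sided permutation p = 0.139, where 0.00433 is the smallest that these groups allow). The second probe set, 1417560_at, differed by 0.15 (SE 0.156, limma adjusted p = 0.946).

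Both probe sets of Sfxn1 ranked the animals alike. Their correlation over the 11 livers was r = 0.83 (permutation p = 0.0016, adjusted p = 0.0064 over the 4 pairs of probe sets) and rho = 0.825 (permutation p = 0.00272). Without the 2 livers farthest from the median r was 0.925, and within the 6 livers of higher 3' to 5' difference it was 0.636.

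**Figure D2:**
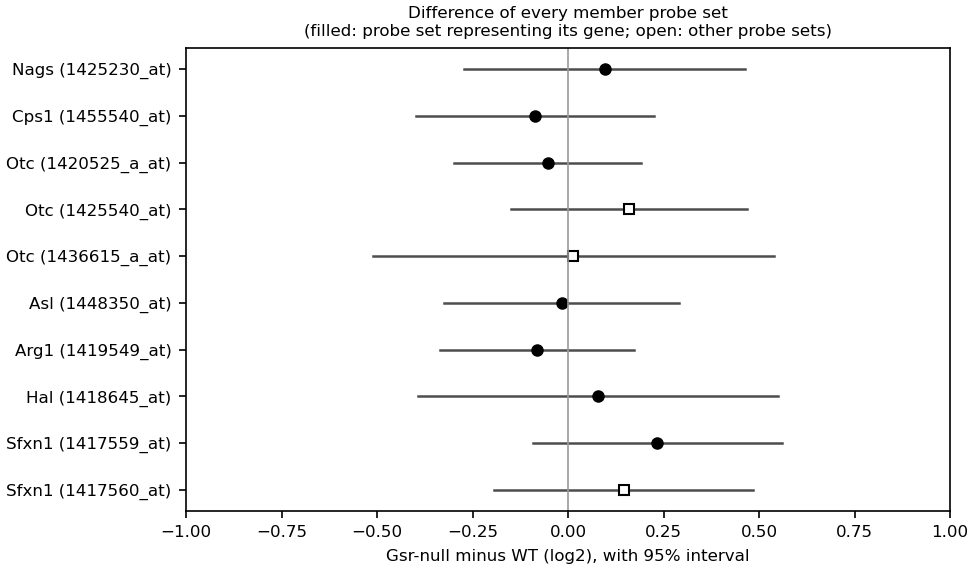
Gsr-null minus WT difference (horizontal axis, log2) of all 10 probe sets with 95% intervals from the limma fit; filled points are representative probe sets and open ones the others. Every interval includes 0, and the largest difference among representative probe sets is 0.23, for Sfxn1.

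Cps1, Arg1 and Nags varied together from one animal to the next. After each genotype's mean was subtracted, 21 pairs of genes were correlated over the 11 livers, and 3 passed at an adjusted permutation p under 0.05, all among these genes. Cps1 and Arg1 gave Pearson's r = 0.897 (permutation p = 0.00012, adjusted p = 0.00252) and Spearman's rho = 0.918 (permutation p = 0.00015, adjusted p = 0.00315). Cps1 and Nags gave r = 0.804 (permutation p = 0.00244, adjusted p = 0.0248) and rho = 0.782 (permutation p = 0.006, adjusted p = 0.042). Arg1 and Nags gave r = 0.795 (permutation p = 0.00354, adjusted p = 0.0248) and rho = 0.791 (permutation p = 0.00574, adjusted p = 0.042). These are the enzyme that makes the Cps1 activator, the first enzyme of the cycle and the last. How often pairs of other genes correlate as strongly on these arrays was not computed. The correlations are therefore not shown to be particular to these 3 genes.

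**Figure D3:**
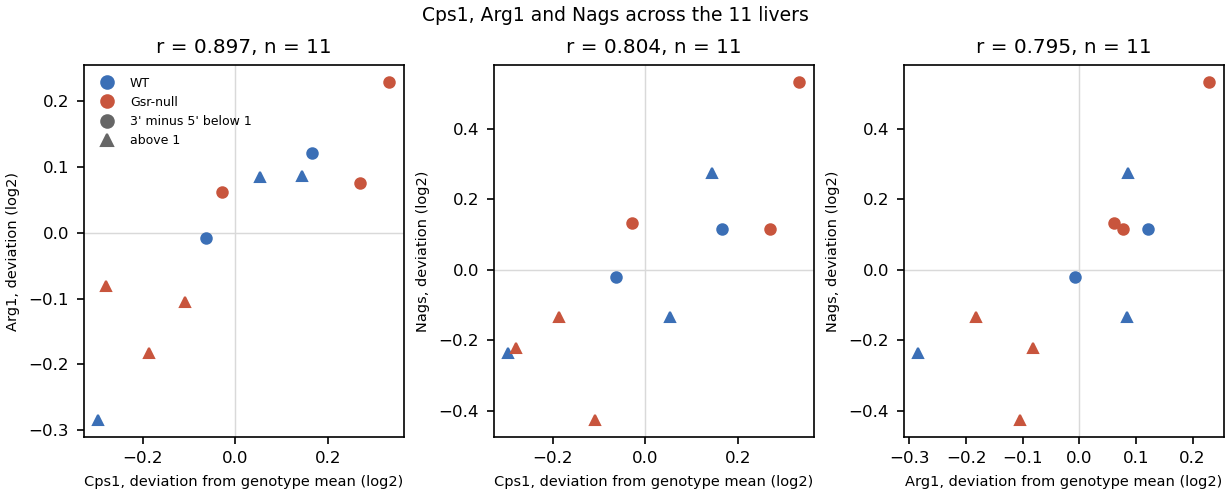
Deviation of Cps1, Arg1 and Nags from their genotype mean (both axes, log2) in each of the 11 livers, coloured by genotype and shaped by the mean control 3' minus 5' difference. Livers low for Cps1 tend to be low for Arg1 and Nags, and the 3 Gsr-null livers of higher 3' to 5' difference are below their genotype mean for all 3 genes.

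The sets by 3' to 5' difference of the array's control probes, which reflects how intact the RNA was and how fully it was labelled, differed in these genes in Gsr-null livers. In those of the lower set, numbers 1, 2 and 3, Cps1 was 12.75, 13.05 and 13.11, and in those of the higher set, numbers 4, 5 and 6, it was 12.50, 12.67 and 12.59. WT livers did not split by set in Cps1, Arg1 or Nags. Cps1 was 13.03 and 12.80 in WT livers 2 and 4 of the lower set. It was 12.57, 12.92 and 13.01 in WT livers 1, 3 and 5 of the higher set. Otc and Hal did split in WT livers. Otc was 12.34 and 12.09 in livers 2 and 4, against 11.93, 12.06 and 12.02 in livers 1, 3 and 5. Hal was 10.77 and 10.48, against 9.67, 10.17 and 9.81. Over both genotypes the mean of the lower and of the higher set was 12.95 and 12.71 for Cps1, 12.75 and 12.58 for Arg1, 7.08 and 6.75 for Nags, and 10.49 and 9.998 for Hal. For Otc, on its representative probe set, it was 12.17 and 11.97. Its sets did not overlap, at 12.08 to 12.34 in the lower and 11.85 to 12.06 in the higher. The share of all genes that split by set in the same ways was not computed. With so few livers these splits are not shown to be particular to the genes named. For Asl the means were 10.96 and 11.03, and for Sfxn1 9.64 and 9.72. Within the 6 livers of the higher set r was 0.877 for Cps1 and Arg1 (exact permutation p = 0.0361). It was 0.659 for Cps1 and Nags (exact permutation p = 0.194) and 0.565 for Arg1 and Nags (exact permutation p = 0.267). The genotype means subtracted here were those of all 11 livers, so the low level of Gsr-null livers 4, 5 and 6 stayed in these values. No correlation was computed in the lower set, since 6 samples were taken as the minimum and it holds 5. With the set means within each genotype subtracted, an alternative chosen after the data were seen, Cps1 and Arg1 still passed (r = 0.814, adjusted permutation p = 0.0193). The 2 pairs with Nags did not, at r = 0.582 and 0.612 (adjusted permutation p = 0.213 for each). In their place Cps1 and Asl (r = 0.774) and Arg1 and Sfxn1 (r = 0.806) passed, so 1 of the 3 pairs was shared between both analyses. These permutations treated all 11 deviations as free, although subtracting means of so few livers ties the deviations together. The p-values of this alternative are therefore too small, and its calls, that of Cps1 and Arg1 included, are not secure.

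Each pair was also correlated without the 2 livers farthest from the median of its first gene, with the genotype means of all 11 livers still subtracted. For Cps1 these were Gsr-null livers 2 and 3, which gave r = 0.893 for Cps1 and Arg1 (adjusted permutation p = 0.0203) and 0.707 for Cps1 and Nags (adjusted permutation p = 0.152). For Arg1 and Nags the 2 livers farthest from the Arg1 median were WT liver 1 and Gsr-null liver 6, and without them r was 0.899. Gsr-null liver 3, highest for all 3 genes, mattered most: without it alone both pairs with Nags lost the call (r = 0.707 and 0.698, adjusted permutation p = 0.137 for each), and Cps1 and Arg1 kept theirs at r = 0.856. Gsr-null livers 2 and 3 also had the highest floor of the deposited values, which are already corrected for background. Their 5th percentile was 1.79 and 1.76, against 1.53 to 1.62 on the other arrays. When both were left out of all 21 pairs and the genotype means were taken again from the 9 livers left, an alternative chosen after the data were seen, 0 pairs passed, with Cps1 and Arg1 at r = 0.896 (adjusted permutation p = 0.0502). The call of Cps1 and Arg1 without these livers therefore depended on how the means and the other pairs were treated, at nearly the same r.

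The other enzymes were tied to these less clearly. Otc gave r = 0.642 with Arg1, 0.605 with Nags and 0.543 with Cps1, and r = 0.64 with Hal, none of them past the adjusted threshold (adjusted permutation p = 0.147, 0.171, 0.221 and 0.147). Otc and Hal passed when Gsr-null liver 1 or 4 was left out (r = 0.771 and 0.768). With the set means within each genotype subtracted, Otc gave r = 0.322 with Arg1, 0.255 with Nags, 0.121 with Cps1 and 0.227 with Hal. None of these passed either. All these values used the representative Otc probe set, with which the other bright one gave r = 0.0147 (permutation p = 0.964). Asl gave r = 0.503 with Cps1 and -0.295 with Otc (adjusted permutation p = 0.264 and 0.564), the latter becoming 0.518 without WT liver 2 and Gsr-null liver 1. Sfxn1 had its highest r with Arg1, 0.388 (adjusted permutation p = 0.456). Of the 21 pairs 19 had a positive r, and the share over pairs of other genes was not computed.

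**Figure D4:**
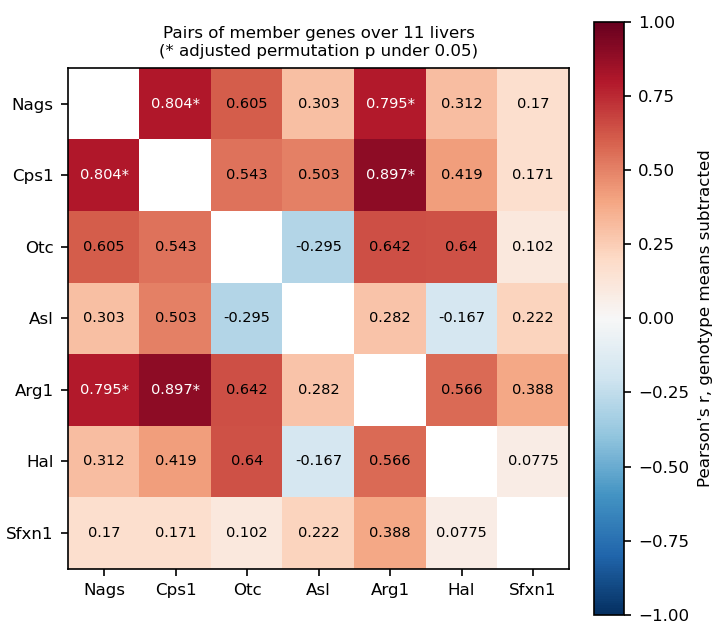
Pearson's r between each pair of the 7 genes (rows and columns) over 11 livers after subtraction of genotype means, with the colour scale from -1 to 1; an asterisk marks an adjusted permutation p under 0.05. The marked cells are Cps1 with Arg1 (0.897), Cps1 with Nags (0.804) and Arg1 with Nags (0.795).

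Among 5934 other genes, the one whose values over the 11 livers were most like each gene was Emg1 for Cps1 (r = 0.919, rho = 0.864), Grb7 for Arg1 (r = 0.937, rho = 0.973) and Fetub for Nags (r = 0.935, rho = 0.855). For Otc it was Foxp1 (r = 0.935, rho = 0.879), for Asl Fgf1 (r = 0.945, rho = 0.945), for Hal Ctnnbip1 (r = 0.904, rho = 0.882) and for Sfxn1 Hdac3 (r = 0.894, rho = 0.925). Each is the highest value of that search and is given as a description with no test. Genotype means were not subtracted here. On the same values r was 0.901 for Cps1 and Arg1, 0.735 for Cps1 and Nags and 0.701 for Arg1 and Nags. Each of the 7 genes had a different nearest gene, and limma called 0 of these 7 nearest genes by genotype ( adjusted p from 0.93 to 0.999).

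No gene that feeds the cycle or carries its intermediates passed the test. Of 19 listed genes 15 were tested and 0 were called by limma, 1 at an unadjusted p under 0.05, with 6 differences above and 9 below 0 and a median of -0.0063, beside -0.032 over all genes. That 1 gene was Slc25a15, the mitochondrial ornithine carrier. It was 10.75, 10.74, 10.61, 10.82 and 10.66 in WT livers 1 to 5 and 10.79, 10.99 and 11.29 at the lowest, median and highest of the Gsr-null livers, a difference of 0.28 (SE 0.114, limma adjusted p = 0.509) with overlapping groups. Arg2, the mitochondrial arginase, was below 4 in all samples and was not tested.

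The steps after Hal in histidine breakdown gave the same picture, with 0 of 3 genes called, 0 at an unadjusted p under 0.05 and a median of 0.046. Uroc1, the urocanate hydratase, differed by 0.22 (SE 0.135, limma adjusted p = 0.785) on a probe set that can bind several transcripts. Transcription factors known to act on hepatocyte genes had 0 of 10 called and 1 at an unadjusted p under 0.05. Their differences were below 0 for 8 and above 0 for 2, where 42.7% of all genes were above 0, with a median of -0.15. Onecut1, a hepatocyte factor also called HNF6, differed by -0.89 (SE 0.344, limma adjusted p = 0.484) near the floor. Among 8 glucagon and fasting-responsive genes 0 were called, 1 at an unadjusted p under 0.05, with a median of 0.068. Tat, the tyrosine aminotransferase, differed by 0.58 (SE 0.251, limma adjusted p = 0.559). Tat is also the 1 hepatocyte marker at an unadjusted p under 0.05.

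Serine and glycine metabolism, the setting of Sds and Sfxn1, had 1 of 9 genes called and 3 at an unadjusted p under 0.05. Differences were above 0 for 7 of the 9, with a median of 0.14. Over all genes tested limma called 0.432%, 8.78% were at an unadjusted p under 0.05 and 42.7% had a difference above 0. The counts of the other lists are to be read beside the same shares. Agxt, 1 of the 3, is counted again in the periportal list. Shmt1, the cytosolic serine hydroxymethyltransferase, was 9.48 to 9.76 in WT and 9.996 to 10.48 in Gsr-null livers and rose by 0.66 (SE 0.119, limma adjusted p = 0.0373), on a probe set that can bind several transcripts. Its call was lost on leaving out any 1 liver but Gsr-null liver 1, with the mean of its probe sets (0.72, adjusted p = 0.144) and on its most variable one (0.84, adjusted p = 0.768). Gldc, the glycine decarboxylase, named after its values were seen, was 8.06 to 9.07 in WT and 9.11 to 10.29 in Gsr-null livers. Its groups did not overlap, but its difference of 0.94 (SE 0.229, limma adjusted p = 0.16) did not pass. Of the periportal genes outside the 7, 1 of 9 was called, Aldh1b1, a mitochondrial aldehyde dehydrogenase, which rose by 1.2 (SE 0.178, limma adjusted p = 0.013); 2 of the 9 were at an unadjusted p under 0.05, and their median was 0.046. Its call was lost without WT liver 5, at an adjusted p of 0.052. Of pericentral genes, which mark hepatocytes around the central vein, 1 of 7 was called, Rhbg, an ammonium transporter, which rose by 1.40 (SE 0.229, limma adjusted p = 0.0252) from a low WT level of 4.15 ± 0.358 (SD, n = 5); 2 of the 7 were at an unadjusted p under 0.05, and their median was 0.17. Rhbg lost its call without WT liver 1, 2, 3 or 5 or Gsr-null liver 3. In the 3 called genes every Gsr-null liver lay above every WT liver. This adds nothing to the call, which used the same values, and 1.51% of all genes had groups without overlap. Rhbg was 3.61 and 3.998 in WT livers 1 and 3, below the filter level of 4, so it passed the filter only with its Gsr-null livers. Without a filter it was also called (limma adjusted p = 0.0323). In the lower and then the higher set by 3' to 5' difference, Shmt1 differed by 0.60 and 0.75, Aldh1b1 by 1.28 and 1.14, and Rhbg by 1.33 and 1.36.

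**Figure D5:**
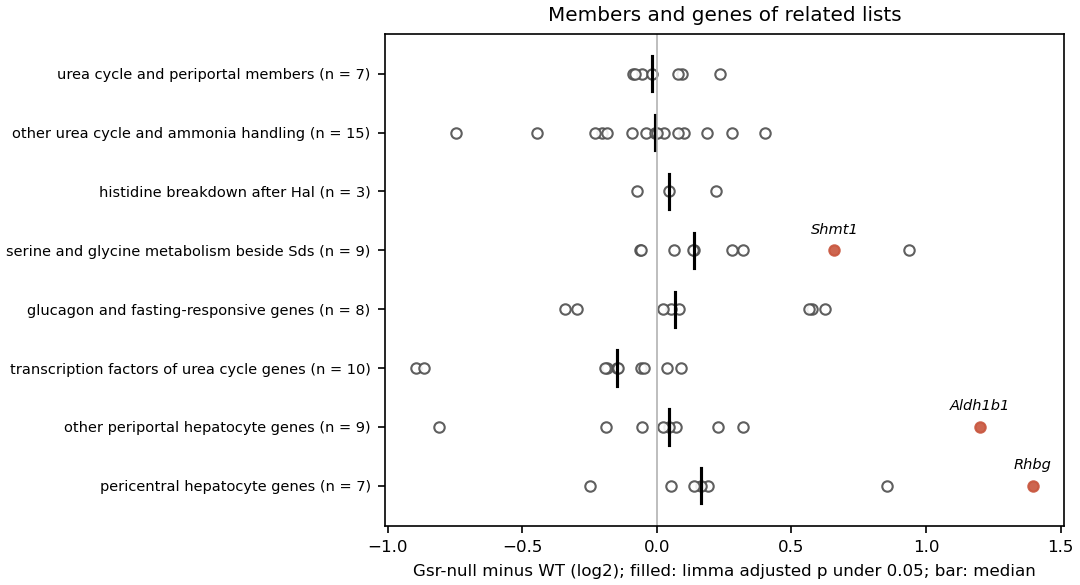
Gsr-null minus WT difference (horizontal axis, log2) of the 7 genes and of the tested genes of 7 related lists (rows), with 1 point per gene, a bar at the median and filled points for genes called by limma. The 7 genes lie between -0.087 and 0.23, and the called genes are Shmt1, Aldh1b1 and Rhbg.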

How the data were processed

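Liver RNA of 11 mice was measured on single-colour Affymetrix arrays, labelled with biotin from 1 µg of total RNA per the labels' protocols. The authors deposited log2 values, 1 per probe set and sample, made with GCRMA per the submitters' processing notes, which corrects background, normalizes between arrays and summarises probes; the log2 scale is read from the values, and version and filters are not given in the sources used here. Of 22690 probe sets 64 controls were left out. Probe sets above 4 in at least 5 samples were tested (9560, or 42.3%), with limma 3.58.1 in R 4.3.3 (lmFit, eBayes) and Benjamini-Hochberg adjustment over all of them; each gene was represented by its brightest tested probe set. All 10 member probe sets passed. The fit was tested on simulated data. Correlations used 100000 permutations (scipy 1.17.1), which treat the 11 deviations as exchangeable. Members, lists and sets were chosen with earlier results of these data known. Named genes are all members, the called or smallest-p gene of each list, and each member's nearest gene. The number of arrays limits the precision. The replicate numbers that the genotypes share showed no sign of pairing the samples. Alternatives covered filters, scaling, variance models, blocks, thresholds and left-out samples.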

Additional observations from a re-analysis of the deposited data

Results flagged for a closer look

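In 2 of 34 groups of values 1 liver stood far from the rest of its genotype, where chance would give about 1.7. The dim Otc probe set 1425540_at was 5.21 in Gsr-null liver 1, against 4.36 to 4.62 in the other Gsr-null livers. The second Sfxn1 probe set, 1417560_at, was 8.94 in WT liver 4, against 9.38 to 9.53 in the other WT livers.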

How the results depend on the processing

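No alternative called any of the 7 genes: the smallest limma adjusted p was 0.598. Of 203 values of their differences 67 equalled the reported one, most under settings that alter only the test (filters, variance models, thresholds); of the 136 that moved, 119 kept their direction and 17 changed sign. Sfxn1 and Arg1 kept their sign under every alternative run that could move them. Asl became 0.019 with median centring and 0.091 within the lower 3' to 5' set, and -0.089 to 0.070 with 1 liver left out. Otc became 0.040 with the mean of its probe sets, 0.014 with its most variable one, and -0.096 to 0.0092 with 1 liver left out. Hal became -0.033 without Gsr-null livers 2 and 3, -0.23 within the lower set, and -0.050 to 0.23 with 1 left out. Nags became -0.066 without Gsr-null livers 2 and 3, -0.13 within the higher set, and -0.011 to 0.18 with 1 left out, and Cps1 became 0.054 within the lower set. Within the lower set 1 gene, Nags, had groups that did not overlap, as did 30.3% of all genes with so few livers. The 3 called genes of the related lists became 0 at an adjusted p under 0.01, 0 without moderation, 0 without Gsr-null livers 2 and 3, 0 within either set, where fewer samples enter, and 0 to 3 with 1 liver left out. The 3 called correlations became 1 without subtraction of genotype means, 0 without Gsr-null livers 2 and 3, and 1 to 4 with 1 liver left out. The causes were not tested.

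Livers that share a replicate number showed no sign of pairing by it. Their deviations from the genotype means correlated at -0.243 to 0.036, and 0 of 5 WT livers correlated best with their own number. So few correlations cannot establish that the livers were unpaired, and the numbers in brackets were not checked. With the replicate block 0 of the 7 genes and 0 genes of the related lists were called.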
